A study of Mus musculus with 24 samples.

Results

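The genes described here encode the proteins of the complement and coagulation cascades, most of which the liver secretes into blood. The 37 members were chosen by symbol: 16 complement genes, 20 genes of coagulation and fibrinolysis, and Vtn (vitronectin), which acts in both. All 37 were found among the 35304 rows of the count table, all had a mean level of at least 0.5 CPM (counts per library scaled to a common size), and all were among the 17275 genes with enough counts to be tested. RNA came from livers of HepKO mice (Alb::Cre_+/0, Bmal1_fl/fl) and HepWT mice (Alb::Cre_0/0, Bmal1_fl/fl). Cre under the albumin promoter removes the floxed clock gene Arntl (Bmal1) from hepatocytes, so the other cells of a HepKO liver keep it, and HepWT mice carry the same floxed gene without Cre. Both groups were C57BL/6 mice aged 8 to 12 weeks and fed at night. Sampling ran around the clock at zeitgeber time (ZT, counted in h from lights on) 2, 6, 10, 14, 18 and 22. There were 2 libraries per genotype and time, 24 in all. No label ties a library to an animal of its own, so the spread behind each p-value may be partly technical.

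Complement is a chain of plasma proteins that marks microbes and damaged cells. Lectins or antibodies set off serine proteases that cleave C4, C2 and C3, and the terminal proteins then assemble into a pore in the target membrane. Coagulation is a second chain of serine proteases: tissue factor with factor VII, or the contact system of factor XII, prekallikrein and kininogen, leads to thrombin, which turns fibrinogen into fibrin, and plasmin later dissolves the clot. Plasma inhibitors hold both chains in check, and several of these proteins rise or fall in the acute-phase response of the liver.

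Total counts were 12997689 to 16910415 in 5 HepKO replicate 2 libraries, and 23583035 to 30677807 in the other 19 libraries of the series. In the count table the column names of these 5 libraries carry a suffix that no other column has. The labels do not explain it, so low depth and whatever the suffix stands for cannot be told apart. Arntl ran from 10.3 to 17.7 CPM across the 12 HepKO libraries, against 1.27 to 46.0 CPM across the 12 HepWT libraries, with a fitted 24 h amplitude (mean to peak, log2) of 0.32 in HepKO and 2.27 in HepWT. Averaged over the day its log2 difference was 0.04 (adjusted p = 0.705). Gene counts cannot show which exons remain. The hepatocyte markers showed that the tissue was liver. Alb averaged 25009 ± 4309 CPM in HepKO and 63916 ± 7972 CPM in HepWT (SD, n = 12 each). Alb itself, whose promoter drives Cre in HepKO, thus differed (log2 -1.36, adjusted p = 4.31e-09, edgeR's quasi-likelihood test). Every HepKO library lay below every HepWT library. The other 8 tested hepatocyte markers had log2 differences from -0.15 to 0.14 that did not pass.

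The fibrinogen genes and the 2 members that stood out in level or rhythm, C9 and Serpinf2, are shown with the 250 bases before their start sites, so that the letters of each promoter can be read beside the values given later. The fibrinogen genes lie side by side on chr3:83007724-83049863 of GRCm38. Sequences are from RefSeq on build GRCm38.p6, read 5′ to 3′ on the strand of the gene. Start sites are those of RefSeq. By the GENCODE M21 positions used for gene locations, Fga starts at 83026076, C9 at 6445327 and Serpinf2 at 75439591. The windows of Fga, C9 and Serpinf2 therefore reach into the genes as GENCODE places them. Capitals mark a match to the C/EBP motif TTGCNNAA, the HNF1 core GTTAAT or the STAT motif TTCNNNGAA on either strand.
Fga (chr3:83025903-83026152, plus strand): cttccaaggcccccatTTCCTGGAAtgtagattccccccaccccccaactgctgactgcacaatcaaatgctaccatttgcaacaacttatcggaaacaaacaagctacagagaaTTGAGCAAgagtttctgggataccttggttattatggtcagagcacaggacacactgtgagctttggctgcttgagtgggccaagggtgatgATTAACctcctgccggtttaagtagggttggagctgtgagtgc
Fgb (chr3:83049864-83050113, minus strand): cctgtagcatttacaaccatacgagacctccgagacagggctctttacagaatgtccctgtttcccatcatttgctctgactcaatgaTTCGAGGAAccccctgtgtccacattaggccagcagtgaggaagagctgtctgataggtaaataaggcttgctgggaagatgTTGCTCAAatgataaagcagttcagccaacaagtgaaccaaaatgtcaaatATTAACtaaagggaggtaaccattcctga
Fgg (chr3:83007474-83007723, plus strand): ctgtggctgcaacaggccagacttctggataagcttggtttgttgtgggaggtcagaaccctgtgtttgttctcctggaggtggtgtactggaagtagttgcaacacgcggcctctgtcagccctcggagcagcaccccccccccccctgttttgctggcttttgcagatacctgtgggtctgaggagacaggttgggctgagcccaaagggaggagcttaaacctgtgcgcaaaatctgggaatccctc
Serpinf2 (chr11:75439502-75439751, minus strand): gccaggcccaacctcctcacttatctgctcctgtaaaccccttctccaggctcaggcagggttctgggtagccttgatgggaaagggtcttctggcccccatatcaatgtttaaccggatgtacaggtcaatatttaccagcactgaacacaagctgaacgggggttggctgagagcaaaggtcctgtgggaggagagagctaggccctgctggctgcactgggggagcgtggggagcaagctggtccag
C9 (chr15:6445096-6445345, plus strand): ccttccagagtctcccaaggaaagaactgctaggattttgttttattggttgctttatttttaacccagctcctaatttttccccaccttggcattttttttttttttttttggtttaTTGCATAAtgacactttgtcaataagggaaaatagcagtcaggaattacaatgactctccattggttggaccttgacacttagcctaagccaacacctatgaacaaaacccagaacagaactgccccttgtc

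Fga and Fgb both held all 3 motifs. Counted back from the start site, the C/EBP match began at -135 in Fga and -80 in Fgb, the HNF1 core at -43 in Fga and -29 in Fgb, and the STAT match at -234 in Fga and -162 in Fgb. Fgg and Serpinf2 held no match to these letters in this window, and C9 held a C/EBP match at -132. A promoter that also takes in the bases just after the start site was in the RefSeq table for 29 of the 37 members. The C/EBP motif was in 9 of these (31%), against 10.8% of the 32851 promoters in the table, the HNF1 core in 9 (31%), against 7.1%, and the STAT motif in 7 (24.1%), against 8.3%. The E-box CACGTG, which the protein made by Arntl and its partners bind, was in none of the 29 and in 7.15% of all promoters. The D-box TTANGTAA was in 1 (3.45%), F13b, against 2.32% of all promoters, and the HNF4 motif CAAAGTCCA was in none, against 0.475%. Both strands were searched, and a match is a run of letters and not a measured binding site.

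Averaged over the 6 times, 19 of the 37 members differed between genotypes (adjusted p below 0.05, edgeR's quasi-likelihood test). This is 51.4% of the members, beside 26.5% of all tested genes. The members were not matched to all genes for level, which affects how readily a difference is called. In HepKO, 7 members were higher (18.9%, beside 13.2% of all genes) and 12 were lower (32.4%, beside 13.3%). The median log2 difference was -0.02 over the members and -0.01 over all genes, so that rises and falls lay on both sides of a centre near 0. The pore protein gene C9 showed the largest change, 1.93-fold higher in HepKO, and the protease genes C2 and Cfb the largest falls, 1.50-fold and 1.46-fold. Complement had 4 higher and 6 lower genes of 16 with a median log2 difference of 0.04, and coagulation 3 higher and 6 lower of 20 with a median of -0.05; the difference between the arms was not tested. The calls of 12 genes, 4 higher (C9, Plg, Mbl1 and C8g) and 8 lower (C2, Cfb, Kng2, F7, C8a, Masp1, Pros1 and Kng1), held in all 35 alternative fits.

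**Figure D1:**
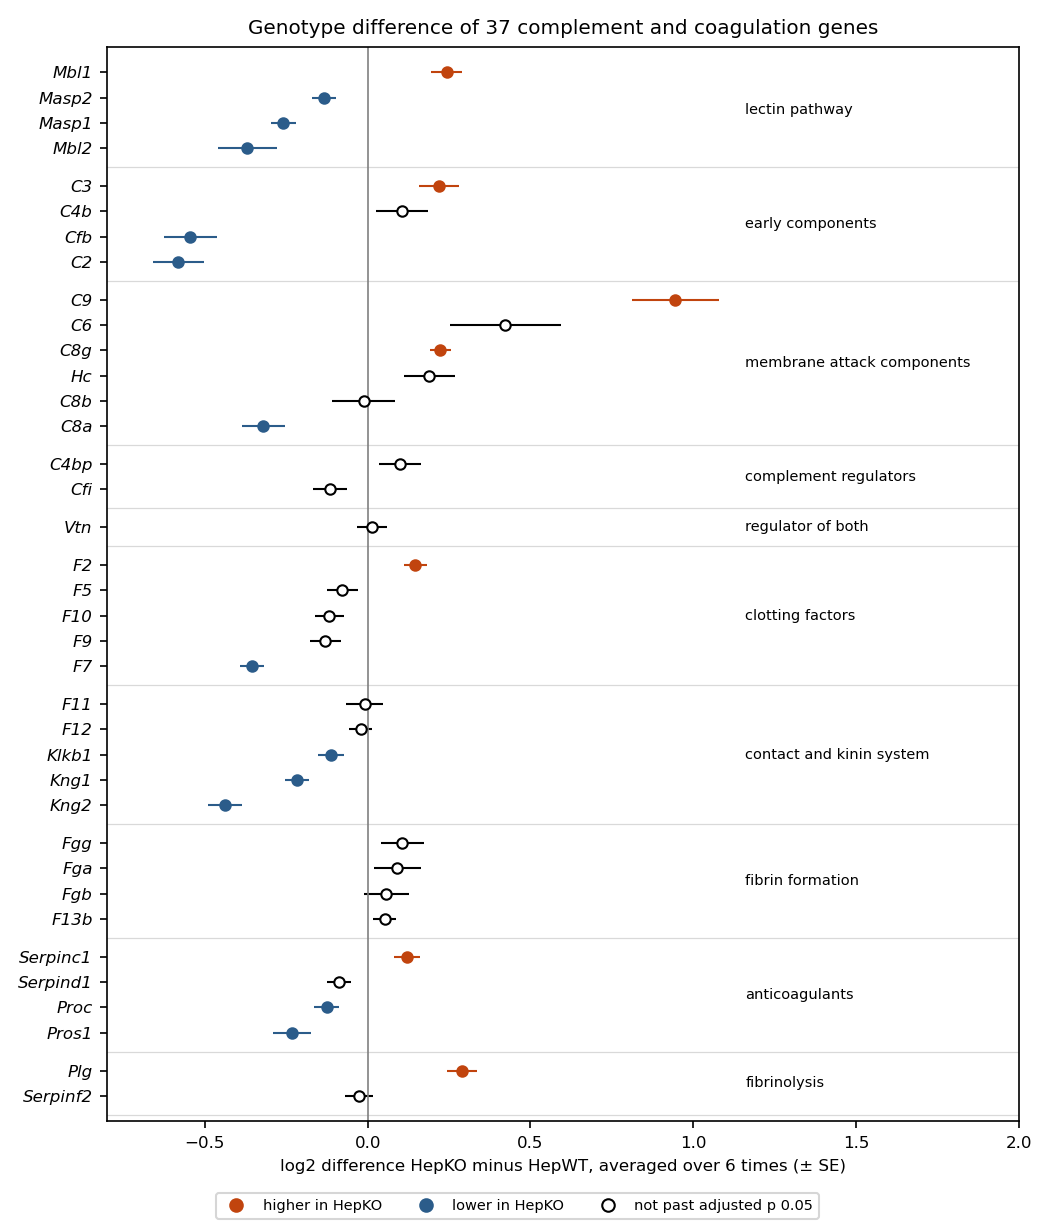
Log2 difference HepKO minus HepWT averaged over 6 times for the 37 members, grouped by role; points are fitted values, bars are ± 1 SE, filled points passed an adjusted p of 0.05 (7 higher, 12 lower). C9 stands far to the right at 0.95, while C2 and Cfb are farthest to the left at -0.58 and -0.54.

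The lectin pathway begins with mannose-binding lectins that recognise microbial sugars, and both mouse lectin genes changed, in opposite directions. Mbl1 ranged from 191 to 239 CPM in HepKO with a median of 220, against 141 to 225 CPM in HepWT with a median of 179. The ranges overlapped, and the fitted level was 1.18-fold higher in HepKO (log2 0.24 ± 0.05 SE, adjusted p = 0.00107). Mbl2 ranged from 154 to 255 CPM in HepKO with a median of 200, against 188 to 313 CPM in HepWT with a median of 261. The fall was 1.29-fold (log2 -0.37 ± 0.09, adjusted p = 0.00554), but it was not called against the HepWT replicate 1 libraries alone (adjusted p = 0.0661). The 2 proteases that travel with these lectins both fell. Masp1, which activates its partner protease, ranged from 143 to 162 CPM in HepKO, against 168 to 210 CPM in HepWT, so every HepKO library lay below every HepWT library. Its fall was 1.20-fold (log2 -0.26 ± 0.04, adjusted p = 6.08e-05). Masp2, which cleaves C4 and C2, averaged 214 ± 14.2 CPM in HepKO and 235 ± 12.6 CPM in HepWT (SD, n = 12 each), a fall of 1.10-fold (adjusted p = 0.0130) that was lost against HepWT replicate 1 alone (0.251). In Masp2, 54.9% of the exon bases lie opposite exons of Tardbp, and no source used here gives the strand setting of the counting.

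Among the early components, the genes of both convertase proteases fell while C3 rose. C2, the protease of the classical and lectin C3 convertase, ranged from 13.5 to 25.8 CPM in HepKO with a median of 19.4, against 23.2 to 37.0 CPM in HepWT with a median of 29.1. Overlap was limited to the 2 highest HepKO libraries, at ZT6 and ZT14, and the fall was 1.50-fold (log2 -0.58 ± 0.08, adjusted p = 2.60e-05). Cfb, the corresponding protease of the alternative pathway, ranged from 4.82 to 8.25 CPM in HepKO with a median of 6.47, against 7.59 to 11.3 CPM in HepWT with a median of 9.42. It fell 1.46-fold (log2 -0.54 ± 0.08, adjusted p = 7.49e-05), and both genes were lower in HepKO at all 6 times. C2 and Cfb are neighbours on chr17:34856374-34898265 with 86 bases between them. The annotated readthrough transcript Gm20547 on the same strand covers 42.8% of the exon bases of C2 and 79.5% of those of Cfb. Counts of the pair may therefore not be separate measurements. Gm20547 has no row in the count table, and how reads shared with it were counted is not known. The levels of C2 and Cfb may thus be too low. Both proteins are made by macrophages as well as hepatocytes. All 10 tested markers of Kupffer cells and macrophages were also lower in HepKO, beside 13.3% of all tested genes. Their sums were 222 to 465 CPM in HepKO and 285 to 518 CPM in HepWT, with no marker at 0 in any library. Their part in these results was not tested. In bulk liver, fewer cells of a type and less RNA per cell cannot be told apart.

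C3, the protein on which all complement pathways meet, was one of the most abundant members. It ranged from 7749 to 9659 CPM in HepKO with a median of 8905, against 6115 to 8705 CPM in HepWT with a median of 7847. The 2 ranges overlapped over much of their length, and the rise was 1.16-fold (log2 0.22 ± 0.06, adjusted p = 0.0124). Without the 5 HepKO libraries of low depth the log2 difference was 0.21 and was not called (adjusted p = 0.138). C4b, the mouse gene of complement C4, averaged 1625 ± 202 CPM in HepKO and 1511 ± 249 CPM in HepWT (SD, n = 12 each) and did not pass (log2 0.11, adjusted p = 0.372). Its near copy C4a averaged 92.9 CPM in HepKO and 26.4 CPM in HepWT, a 3.73-fold rise (adjusted p = 0.00153). Reads shared by the 2 copies could have been split between them, so both values are uncertain.

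The genes of the membrane attack complex did not move as a unit: 2 of 6 rose, 1 fell and 3 did not pass. C9, whose protein polymerises to form the wall of the pore, ranged from 811 to 1957 CPM in HepKO with a median of 1346, against 414 to 943 CPM in HepWT with a median of 695. All HepKO libraries but ZT14 replicate 2, at 811 CPM, lay above the highest HepWT library. The rise was 1.93-fold (log2 0.95 ± 0.13, adjusted p = 3.71e-05), and the fitted difference was above 0 at all 6 times, from 0.50 at ZT10 to 1.32 at ZT14. At ZT14 the HepKO libraries were far apart, at 1957 and 811 CPM, beside 414 and 693 CPM in HepWT. Without the higher of those HepKO libraries the ZT14 difference was 0.55 and was not called (adjusted p = 0.338), whereas over the day C9 kept its call in every alternative, with log2 values from 0.82 to 1.03.

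The 3 chains of complement C8, which seat the first C9 molecule, come from 3 genes with 3 different outcomes. C8g, the gamma chain, ranged from 246 to 281 CPM in HepKO with a median of 272, against 205 to 253 CPM in HepWT with a median of 232. Overlap was small, and the rise was 1.17-fold (log2 0.22 ± 0.03, adjusted p = 6.08e-05). C8a, the alpha chain, ranged from 694 to 1050 CPM in HepKO with a median of 833, against 823 to 1276 CPM in HepWT with a median of 1066. It fell 1.25-fold (log2 -0.32 ± 0.06, adjusted p = 0.00128). C8b, the beta chain, lies next to C8a on chr4:104766317-104876398 in the opposite orientation. It ranged from 352 to 669 CPM in HepKO with a median of 501, against 371 to 599 CPM in HepWT with a median of 519, and did not pass (log2 -0.01 ± 0.10, adjusted p = 0.950). Whether the C8a and C8b differences differ from each other was not tested.

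Hc, which encodes complement C5, averaged 1674 ± 236 CPM in HepKO and 1472 ± 222 CPM in HepWT (SD, n = 12 each), with a log2 difference of 0.19 that did not pass (adjusted p = 0.0884). C6, the protein that joins C5b next, averaged 327 ± 42.9 CPM in HepKO and 247 ± 75.3 CPM in HepWT (log2 0.42 ± 0.17, adjusted p = 0.0804). The HepWT spread was wide: ZT2 replicate 2 lay at 74.9 CPM, and the log2 difference of replicate 2 from replicate 1 in HepWT was -0.76. Without HepWT ZT2 replicate 1 the C6 difference was 0.63 and called (adjusted p = 0.00114), as it was without HepWT ZT22 replicate 1 (0.0423). Against HepWT replicate 1 alone it was 0.12 (adjusted p = 0.443), and against HepWT replicate 2 alone 0.88 (5.97e-05). Hc was called without HepKO ZT14 replicate 2 (0.0147) or HepWT ZT2 replicate 1 (0.0272). The regulators Cfi, a protease that inactivates C3b and C4b, and C4bp, its cofactor, did not pass. Cfi averaged 557 CPM in HepKO and 606 CPM in HepWT (log2 -0.12, adjusted p = 0.125), and C4bp 612 CPM in HepKO and 572 CPM in HepWT (log2 0.10, adjusted p = 0.278). C4bp was called, higher in HepKO, when the control was HepWT replicate 1 alone (log2 0.21, adjusted p = 0.00406) or the fit blocked the HepWT libraries by number (0.20, 0.0480). Cfi was called without HepWT ZT14 replicate 1 (0.0289) or HepWT ZT22 replicate 1 (0.0496). Vtn, which binds terminal complement complexes and a plasminogen activator inhibitor, was almost level at 1936 ± 98.4 CPM in HepKO and 1921 ± 199 CPM in HepWT (log2 0.01 ± 0.05, adjusted p = 0.867).

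**Figure D2:**
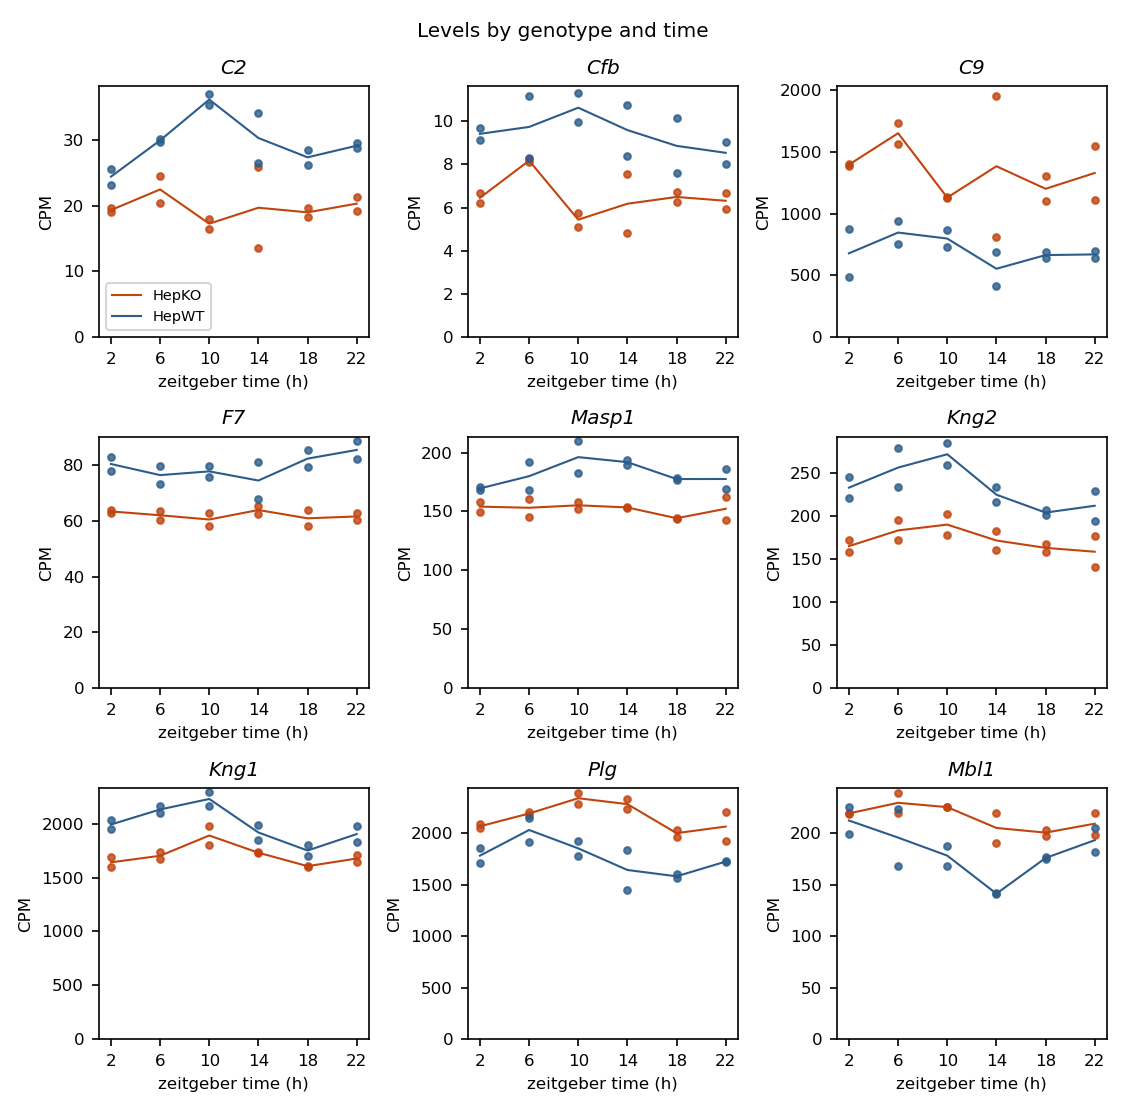
CPM scaled by TMM against zeitgeber time for C2, Cfb, C9, F7, Masp1, Kng2, Kng1, Plg and Mbl1; each point is a library (2 per genotype and time) and lines join the means of HepKO and HepWT. C9 in HepKO lies between 811 and 1957 CPM, against 414 to 943 CPM in HepWT, and F7 in HepKO stays between 58.2 and 65.4 CPM, below every HepWT library.

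Of the 5 clotting factor genes, F7 fell, F2 rose and 3 did not pass. F7, the protease that starts clotting with tissue factor, ranged from 58.2 to 65.4 CPM in HepKO with a median of 62.9, against 67.9 to 88.7 CPM in HepWT with a median of 79.8. No HepKO library reached the lowest HepWT library. The fall was 1.28-fold (log2 -0.36 ± 0.04, adjusted p = 1.53e-06), the smallest adjusted p of the members. F7 and Masp1 were the 2 members whose genotypes did not overlap, both with HepKO below HepWT, beside 1.43% of all tested genes in either order and 0.480% in that order. F10, which lies 1499 bases from F7 on the same strand of chr8:13026034-13056676 and encodes the protease that F7 activates, ranged from 346 to 398 CPM in HepKO with a median of 363, against 312 to 447 CPM in HepWT with a median of 401. It did not pass (log2 -0.12 ± 0.04, adjusted p = 0.0582).

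F2, prothrombin, ranged from 1425 to 1569 CPM in HepKO with a median of 1514, against 1229 to 1478 CPM in HepWT with a median of 1359. The ranges overlapped, and the rise was 1.11-fold (log2 0.15 ± 0.03, adjusted p = 0.00403); without the 5 HepKO libraries of low depth the log2 difference was 0.16, with an adjusted p of 0.0515. F9, the intrinsic pathway protease that activates F10, averaged 177 ± 8.06 CPM in HepKO and 193 ± 16.3 CPM in HepWT (log2 -0.13, adjusted p = 0.0581). F5, the cofactor that F10 needs to make thrombin, averaged 647 ± 68.0 CPM in HepKO and 684 ± 88.4 CPM in HepWT (log2 -0.08, adjusted p = 0.256). F9 and F10 both sat just outside the threshold, and each was called in 6 of the 35 alternatives. Without HepWT ZT14 replicate 1 the adjusted p was 0.00409 for F9 and 0.00674 for F10. F9 was also called without HepKO ZT14 replicate 1 (0.0345) or HepWT ZT2 replicate 2 (0.0436), and F10 without HepKO ZT14 replicate 2 (0.0486) or HepWT ZT2 replicate 1 (0.0355).

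In the contact and kinin system, 3 of 5 genes fell and 2 did not pass. Kng2 and Kng1 encode kininogens, the carriers of bradykinin and cofactors of contact activation. Kng2 ranged from 140 to 202 CPM in HepKO with a median of 172, against 194 to 284 CPM in HepWT with a median of 231. It was lower in HepKO at all 6 times, overlapped HepWT at the edge, and fell 1.35-fold (log2 -0.44 ± 0.05, adjusted p = 6.67e-06). Kng1 ranged from 1595 to 1979 CPM in HepKO with a median of 1698, against 1701 to 2296 CPM in HepWT with a median of 1981. Its fall was 1.16-fold (log2 -0.22 ± 0.04, adjusted p = 0.000226). The genes are near copies of each other on chr16:22985854-23082078, so a share of reads could have been assigned to either.

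Klkb1, plasma prekallikrein, ranged from 167 to 237 CPM in HepKO with a median of 196, against 169 to 282 CPM in HepWT with a median of 210. The difference was small (log2 -0.11 ± 0.04, adjusted p = 0.0414) and was lost in 20 of 35 alternatives, among them the omission of any of 16 single libraries (0.0527 to 0.0869). F11, its neighbour on chr8:45241174-45294859 and the protease that activates F9, ranged from 84.6 to 106 CPM in HepKO with a median of 96.9, against 66.5 to 152 CPM in HepWT with a median of 92.9. Its mean over the day did not pass (log2 -0.01 ± 0.06, adjusted p = 0.930), although the HepWT range was the wider one. F12, which starts contact activation, averaged 389 ± 15.2 CPM in HepKO and 396 ± 26.5 CPM in HepWT (log2 -0.02, adjusted p = 0.700).

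The fibrinogen genes were the most abundant of coagulation. None of the 4 genes of fibrin formation passed over the day by edgeR's quasi-likelihood test, limma-voom or DESeq2; none reached an unadjusted p of 0.05. Fgg was called without HepWT ZT14 replicate 2 (adjusted p = 0.0251), and against the HepWT replicate 1 libraries alone Fga (0.00462), Fgb (0.0171) and Fgg (0.00641) were called, all higher in HepKO. With a block in HepWT alone Fga (0.0265) and Fgg (0.0255) were called as well. Per length of exon, Fgg, Fga and Fgb stood at 1788, 1711 and 1260 CPM per kb in HepKO and at 1704, 1652 and 1238 CPM per kb in HepWT. C3 stood at 1711 CPM per kb in HepKO and 1469 CPM per kb in HepWT on this scale. Cfb was lowest, at 2.30 in HepKO and 3.35 in HepWT, but 79.5% of its exon bases are shared with Gm20547. Together the fibrinogen genes took 1.15% to 1.63% of all counts in HepKO libraries, against 0.800% to 2.1% in HepWT libraries. Fga, the alpha chain, ranged from 4193 to 6190 CPM in HepKO with a median of 5031, against 2814 to 8231 CPM in HepWT with a median of 5129. The HepKO range lay inside the HepWT range, and the same held for Fgb and Fgg. Fgb, the beta chain, ranged from 4124 to 5564 CPM in HepKO, against 2964 to 7466 CPM in HepWT, and Fgg, the gamma chain, from 3105 to 4299 CPM in HepKO, against 1993 to 5519 CPM in HepWT. Their log2 differences over the day were 0.09 ± 0.07 for Fga, 0.06 ± 0.07 for Fgb and 0.11 ± 0.07 for Fgg. F13b, the carrier subunit of the enzyme that cross-links fibrin, averaged 243 ± 10.1 CPM in HepKO and 234 ± 14.3 CPM in HepWT (log2 0.05, adjusted p = 0.305).

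Of the 4 anticoagulant genes, 1 rose and 2 fell. Pros1, protein S, ranged from 63.3 to 93.6 CPM in HepKO with a median of 76.9, against 62.8 to 109 CPM in HepWT with a median of 89.5. The overlap was broad, and the fall was 1.17-fold (log2 -0.23 ± 0.06, adjusted p = 0.00652). Proc, protein C, which with protein S inactivates the cofactors of clotting, averaged 325 ± 19.8 CPM in HepKO and 355 ± 20.5 CPM in HepWT, a fall of 1.09-fold (adjusted p = 0.0237). Serpinc1, antithrombin, averaged 1955 ± 43.5 CPM in HepKO and 1799 ± 133 CPM in HepWT, a rise of 1.09-fold (adjusted p = 0.0301). The Proc call was lost in 8 of 35 alternatives, including those without HepKO ZT6 replicate 2 (0.0519) and HepWT ZT10 replicate 1 (0.0515). The Serpinc1 call was lost in 14, including the omission of any of 9 single libraries (0.0510 to 0.0644), and 34.4% of the exon bases of Serpinc1 lie opposite Zbtb37. Serpind1, heparin cofactor II, averaged 484 ± 26.5 CPM in HepKO and 515 ± 45.2 CPM in HepWT and did not pass (log2 -0.09, adjusted p = 0.0785), although it was called without HepWT ZT14 replicate 1 (0.0486).

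In fibrinolysis, Plg, the precursor of plasmin, ranged from 1927 to 2394 CPM in HepKO with a median of 2190, against 1446 to 2151 CPM in HepWT with a median of 1756. The rise was 1.22-fold (log2 0.29 ± 0.05, adjusted p = 0.000125), and its fitted difference was above 0 at all 6 times. Serpinf2, the inhibitor of plasmin, ranged from 511 to 721 CPM in HepKO with a median of 631, against 414 to 980 CPM in HepWT with a median of 622. The medians were close, the HepWT range was the wider one, and the mean over the day did not pass (log2 -0.03 ± 0.04, adjusted p = 0.715).

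Time of day separated the members further. At single times, 19 of 222 pairs of member and time were called: 7 higher in HepKO, all at ZT14, and 12 lower, of which 9 were at ZT6 and ZT10. At ZT14, Fga, Fgg, Serpinf2, Plg, C9, C8g and Mbl1 were higher (18.9% of members, beside 4.60% of all genes) and Masp1 was lower (beside 3.04%). At ZT6, F11, Serpinf2, Kng1 and Kng2 were lower (10.8% of members, beside 2.41%), and at ZT10 C2, Cfb, Masp1, F7 and Kng2 were lower (13.5%, beside 3.98%). F7 was also lower at ZT18 (beside 1.70% of all genes) and at ZT22 (beside 0.509%). At ZT2 edgeR's quasi-likelihood test called none (beside 1.86%), with 8 members at an unadjusted p below 0.05, and limma-voom called none and DESeq2 4. These single-time calls rest on 2 libraries per group. Without the 5 HepKO libraries of low depth 3 of the pairs were called, and 18 of the 19 were lost when some single library was left out, C2 at ZT10 being the exception. Without HepWT ZT14 replicate 1 the ZT14 calls were all lost, with adjusted p from 0.05001 for Mbl1 to 0.326 for Fga; that fit has 1 HepWT library at ZT14. The log2 differences of C8g (0.34), Mbl1 (0.54) and Masp1 (-0.31) were then close to those from all libraries (0.36, 0.54 and -0.32). Those of Fga (0.35) and Fgg (0.33) were smaller than from all libraries (0.64 and 0.62), as were those of C9, Plg and Serpinf2.

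A 24 h wave was fitted to each genotype. In HepKO 2 members were rhythmic (5.41%, beside 14.3% of all genes), Klkb1 and Serpinf2; in HepWT 13 were (35.1%, beside 30.3%), Klkb1 and Serpinf2 among them (rhythm in both, beside 10.4%). The HepWT rhythms were in 11 of 20 coagulation genes and in 2 of 16 complement genes, Mbl1 and Cfi. This difference between the arms was not tested. The 11 include neighbouring genes: Fga, Fgb and Fgg, Kng1 and Kng2, and F11 and Klkb1. No complement gene was called in HepKO by edgeR's quasi-likelihood test, limma-voom or DESeq2, with 2 at an unadjusted p below 0.05. A call in HepWT alone does not show that the rhythms differ: the test of the difference called 1 member, Serpinf2 (beside 1.50% of all genes). The fitted amplitude was lower in HepKO for 31 of 37 members, beside 59.7% of all tested genes. Its median was 0.08 in HepKO and 0.14 in HepWT over the members, and 0.19 in HepKO and 0.22 in HepWT over all genes. A fitted amplitude cannot fall below 0 and grows with noise, and the members were not matched to all genes for level.

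Serpinf2 had the largest fitted amplitude of the members in HepWT; in HepKO its amplitude was below that of Klkb1. At ZT2 it stood at 632 and 627 CPM in HepKO, against 709 and 817 CPM in HepWT. At ZT6 the HepKO libraries held 637 and 690 CPM, against 968 and 980 CPM in HepWT. The order turned by ZT14, with 630 and 656 CPM in HepKO, against 414 and 518 CPM in HepWT, so that at ZT6 and at ZT14 the genotypes did not overlap and lay in opposite order. At ZT10 it stood at 718 and 721 CPM in HepKO, against 729 and 669 CPM in HepWT. At ZT18 the values were 515 and 511 CPM in HepKO, against 442 and 484 CPM in HepWT, and at ZT22 552 and 600 CPM in HepKO, against 561 and 576 CPM in HepWT. The genotypes thus overlapped at ZT10 and ZT22. The fitted amplitude was 0.20 ± 0.05 in HepKO and 0.54 ± 0.05 in HepWT, with peaks at ZT8.03 ± 0.89 h in HepKO and ZT5.15 ± 0.33 h in HepWT. Rhythm was called in both HepKO (adjusted p = 0.0179) and HepWT (1.07e-07), and the rhythms differed (adjusted p = 0.00248). The difference was called in every alternative but the one without the 5 HepKO libraries of low depth (adjusted p = 0.0675). The HepKO rhythm was also not called without those libraries (0.265), nor without HepKO ZT18 replicate 1 (0.0578) or replicate 2 (0.0572).

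The fibrinogen genes had similar daily waves in HepWT. Fga at ZT6 held 5759 and 5513 CPM in HepKO, against 6057 and 8231 CPM in HepWT. At ZT14 it held 6190 and 5074 CPM in HepKO, against 2814 and 4432 CPM in HepWT, and at ZT18 4193 and 4371 CPM in HepKO, against 3050 and 3488 CPM in HepWT. HepWT libraries thus lay above HepKO libraries at ZT6 and below them at ZT14 and ZT18. The fitted amplitudes were 0.21 ± 0.07 in HepKO and 0.51 ± 0.07 in HepWT for Fga, 0.18 ± 0.07 in HepKO and 0.44 ± 0.07 in HepWT for Fgb, and 0.20 ± 0.07 in HepKO and 0.49 ± 0.07 in HepWT for Fgg. Peaks fell at ZT7.93 to ZT8.99 in HepKO and at ZT4.14 to ZT5.24 in HepWT. Rhythm was called for each in HepWT and for none in HepKO by edgeR's quasi-likelihood test, where all 3 had an unadjusted p below 0.05, nor by limma-voom or DESeq2. The difference of rhythms fell just short for Fga (adjusted p = 0.0542) and Fgg (0.0575) and further short for Fgb (0.142). DESeq2 called all 3 differences, at 0.00578 for Fga, 0.0457 for Fgb and 0.00652 for Fgg, and all 3 were called without HepWT ZT14 replicate 2 (0.0212 for Fga, 0.0221 for Fgb and 0.0196 for Fgg). Fga and Fgg were also called without either HepWT ZT2 library, at 0.0391 to 0.0467, and Fga without HepWT ZT22 replicate 2 (0.0452). Limma-voom called Fga (0.0415) and Fgg (0.0427). Without the 5 HepKO libraries of low depth none of the 3 differences passed edgeR's quasi-likelihood test, at 0.255 for Fga, 0.405 for Fgb and 0.241 for Fgg.

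**Figure D3:**
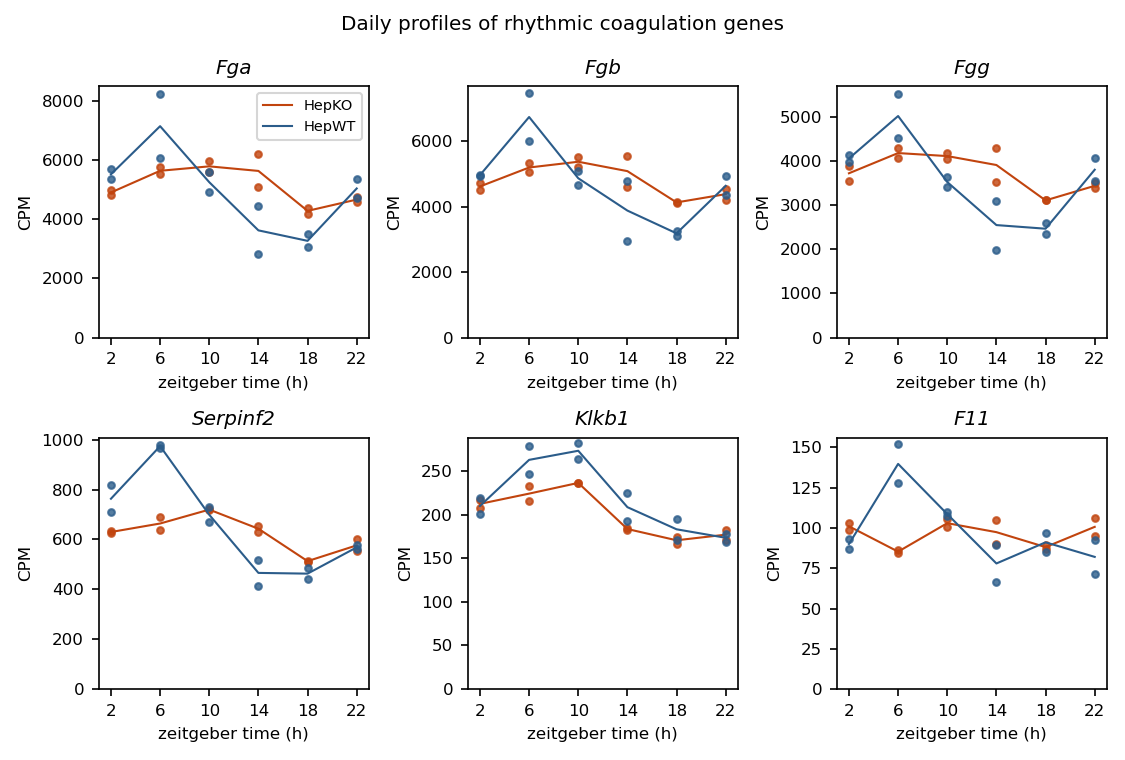
CPM scaled by TMM against zeitgeber time for Fga, Fgb, Fgg, Serpinf2, Klkb1 and F11; points are libraries and lines join the means of HepKO and HepWT. Serpinf2 in HepWT is at 968 and 980 CPM at ZT6 and at 414 and 518 CPM at ZT14, while HepKO stays between 511 and 721 CPM.

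Klkb1 was rhythmic in both genotypes, with an amplitude of 0.24 ± 0.04 in HepKO and 0.34 ± 0.04 in HepWT and peaks at ZT6.95 ± 0.61 h in HepKO and ZT8.23 ± 0.43 h in HepWT. Its levels at ZT10 were 237 and 236 CPM in HepKO, against 282 and 264 CPM in HepWT, and at ZT18 174 and 167 CPM in HepKO, against 195 and 171 CPM in HepWT. Both genotypes were thus higher at ZT10 than at ZT18, and the difference of rhythms did not pass (adjusted p = 0.444). Without the 5 HepKO libraries of low depth its HepKO rhythm was not called (0.147). In Klkb1, 43.2% of the exon bases are shared on the same strand with Gm45753, a protein-coding gene with a row of its own in the count table, so reads there may have been split or left out. Its neighbour F11 had a fitted amplitude of 0.01 ± 0.08 in HepKO and 0.31 ± 0.08 in HepWT (difference of rhythms, adjusted p = 0.325). At ZT6 F11 held 86.1 and 84.6 CPM in HepKO, against 128 and 152 CPM in HepWT, a fall of 1.64-fold at that time (adjusted p = 0.00663). The HepWT rhythm of F11 was not called without HepWT ZT6 replicate 2 (0.0584).

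The other rhythmic members in HepWT were F5, Mbl1, Kng1, Kng2, Serpind1, Plg and Cfi, with amplitudes from 0.14 (Serpind1) to 0.24 (Mbl1) in HepWT and from 0.08 (Serpind1) to 0.15 (F5) in HepKO. Over all 13, peaks in HepWT ran from ZT2.17 ± 0.75 h for Mbl1 to ZT11.3 ± 0.77 h for F5 (SE), with a median of ZT5.89. The peak times of all rhythmic genes were not set beside these. In HepKO the fitted amplitude was lower for all 13 and the fitted peak was later for 8. These 13 were picked by their rhythm in HepWT, which favours a larger amplitude there. The count of lower amplitudes is therefore no test of the genotypes. Most of these waves in HepKO were not called, so their peaks are loosely set. In HepWT the rhythm of Cfi was lost without ZT6 replicate 1 (0.119) or ZT10 replicate 1 (0.0511), and that of Plg without ZT6 replicate 2 (0.0851).

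**Figure D4:**
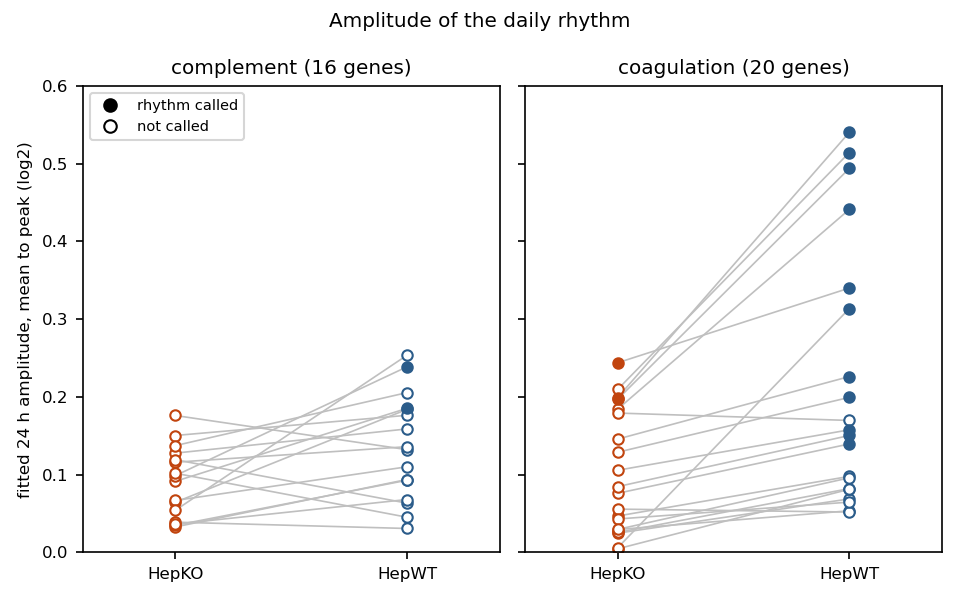
Fitted 24 h amplitude (mean to peak, log2) in HepKO and HepWT for 16 complement and 20 coagulation genes; a line joins the values of a gene and filled points had a called rhythm. The steepest lines are in coagulation, where Serpinf2 has 0.20 in HepKO and 0.54 in HepWT.

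Taking the members as a whole, their share of all counts was 4.09% to 4.87% in HepKO (median 4.44%) and 3.24% to 5.28% in HepWT (median 4.15%). C3 took 0.795% to 0.980% of counts in HepKO and 0.620% to 0.848% in HepWT. These are shares of raw totals, not scaled by TMM, as are the fibrinogen shares above. Alb alone took 1.89% to 3.56% of counts in HepKO libraries and 5.65% to 8.00% in HepWT libraries. A larger Alb share leaves less for all other genes, and its part in these shares was not tested.

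The rest of both cascades was read from lists of genes that are not members. Of 30 other complement genes tested, 3 rose and 9 fell. Over all tested genes, 13.2% were higher and 13.3% lower in HepKO. The risers were C4a, the membrane inhibitor Cd59a (1.22-fold) and Cfhr2 (1.16-fold), and among the falls was C1s1, a protease of the classical pathway, at 354 CPM in HepKO and 448 CPM in HepWT. The C1q chains C1qa and C1qb, which macrophages make, also fell, by 1.32-fold and 1.36-fold. C1qa, C1qb and Vsig4, a further fall, are also among the Kupffer cell and macrophage markers above, so they are counted in both lists. The other falls were C1qc, C1ra, Cfp, Serping1 and Itgb2. Of 30 other coagulation genes tested, 3 rose and 9 fell, beside the same 13.2% and 13.3% of all tested genes. F2r, a receptor for thrombin, rose 1.62-fold to 79.3 CPM in HepKO, against 48.4 CPM in HepWT, and the protease inhibitor Tfpi2 rose 1.28-fold. Lman1, which carries factors V and VIII out of the endoplasmic reticulum, fell 1.16-fold, and Hrg, histidine-rich glycoprotein, fell 1.13-fold. Median log2 differences were -0.10 in the complement list and -0.06 in the coagulation list. The 4 tested platelet markers had log2 differences from -0.29 to 0.42 that did not pass, with sums of 2.18 to 4.50 CPM in HepKO and 2.76 to 3.77 CPM in HepWT.

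Among 12 hepatocyte transcription factors, 2 rose and 5 fell. The shares over all tested genes, 13.2% higher and 13.3% lower, stand beside this count and those of the next lists. Cebpa, a C/EBP factor, was at 239 CPM in HepKO and 353 CPM in HepWT, a fall of 1.47-fold (adjusted p = 4.94e-08), and Foxa3 fell 1.60-fold and the bile acid receptor gene Nr1h4 1.28-fold. Foxa2 rose 1.40-fold. Of 6 clock output factors, Nr1d2 (3.33-fold), Dbp (2.13-fold), Nr1d1 (3.25-fold) and Hlf fell and Nfil3 rose 1.29-fold. Of 19 acute-phase genes, 2 rose, Cp (ceruloplasmin, 1.43-fold) and Itih3 (1.41-fold), and 7 fell, among them the interleukin 6 receptor gene Il6ra (1.73-fold) and Saa4 (1.95-fold). The median log2 difference of the acute-phase list was -0.41. HepKO ZT6 replicate 2 was the highest HepKO library for 12 of these 19 genes, with Saa1 at 590 CPM beside 86.3 CPM in the next HepKO library, and Lcn2 at 54.3 CPM beside 6.08 CPM. Without it, in a fit chosen after seeing the data, 2 of the 19 rose and 11 fell, with a median of -0.44. Among the members, the fit without this library called 18 over the day, 7 higher and 11 lower. At ZT6 it called Serpinf2 (adjusted p = 0.0368) but not F11 (log2 -0.70, adjusted p = 0.0681), Kng1 (-0.30, 0.271) or Kng2 (-0.40, 0.297), with 1 HepKO library left at that time.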

How the data were processed

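Per the labels' protocols, total liver RNA was depleted of ribosomal RNA and turned into strand-specific libraries. Per the submitters' processing notes, reads were aligned with STAR 2.4.0i to mm10. The authors deposited raw counts per gene, without normalization. No source used here gives the counting tool, annotation or strand setting.

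All 24 libraries entered 1 fit in edgeR 4.0.16 (R 4.3.3; TMM scaling, filterByExpr with a minimum count of 10 and a minimum total of 15, quasi-likelihood F test, two-sided). Benjamini-Hochberg adjusted p below 0.05 over the 17275 tested genes was the threshold. A model with 12 groups of genotype and time (12 residual degrees of freedom) gave the difference averaged over 6 times and at each time; a 24 h cosine and sine per genotype (18 residual degrees of freedom) gave rhythms, with delta-method SEs for amplitude and peak. Levels are CPM scaled by TMM; the SD over 12 libraries includes the change over the day, and fold differences are averaged on the log scale. Positions are from GENCODE M21 (GRCm38). Members and lists were chosen with earlier results of these data known, and every member is reported. By rule, fuller values were due for the 6 largest rises and falls, members whose rhythm differs or is called in both genotypes, and neighbouring members; these are printed as ranges over libraries, and at single times for Serpinf2, Klkb1, Fga and F11. Alternatives were DESeq2 1.42.0, limma-voom (limma 3.58.1), RLE scaling, no filter, a threshold of 0.01, blocks, other waves and leaving out libraries; a lone library was then assumed to vary like the other groups. The methods were tested on simulated data. Reads copied by PCR carry no molecular identifier here, so counts overstate the number of independent molecules.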

Additional observations from a re-analysis of the deposited data

Results flagged for a closer look

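The rhythm of Serpinf2, the gene of the plasmin inhibitor, differed between the genotypes by a test of the difference itself (adjusted p = 0.00248, edgeR's quasi-likelihood test over all genes). Its fitted amplitude was 0.20 ± 0.05 in HepKO and 0.54 ± 0.05 in HepWT (log2, SE). The HepKO libraries were below the HepWT libraries at ZT6 and above them at ZT14, with 2 libraries per genotype at each time. Serpinf2 was the only member of 37 with such a call, beside 1.50% of all tested genes. The rhythm difference was not called without the 5 HepKO libraries of low depth.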

How the results depend on the processing

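Of 1295 values for the genotype difference of single members over the day, 51 lost and 35 gained a call and 30 changed sign, each of the last for a member that was not called. The main counts were 19 members over the day, 19 pairs at single times, 2 rhythms in HepKO, 13 in HepWT and 1 difference of rhythms. Leaving out each library in turn gave 17 to 22, 14 to 23, 1 to 3, 11 to 15 and 1 to 4. Pairs at single times numbered 6 at a threshold of 0.01, 43 with no filter, 38 with DESeq2 and 3 without the 5 HepKO libraries of low depth. Rhythms in HepKO numbered 1 at 0.01, 7 with no filter and 0 without the low-depth libraries. Differences of rhythms numbered 6 with no filter, 3 with limma-voom, 2 with the 12 h harmonic, 4 with DESeq2 and 0 without the low-depth libraries; removing those libraries also leaves 5 HepKO groups with 1 library. With the replicate block the counts were 20, 20, 2, 13 and 2. The block added calls of C6 over the day (log2 0.47, adjusted p = 0.0194) and of the Fga rhythm difference (0.0472). Fewer members were called over the day without the 5 HepKO libraries of low depth. Calls were lost for C3 (log2 0.21), Masp2 (-0.15), F2 (0.16), Proc (-0.11), Serpinc1 (0.13) and Klkb1 (-0.11). Replicate numbers did not pair the samples across genotypes. Deviations of same-numbered libraries of HepKO and HepWT at 1 time correlated at -0.09 to 0.05. Within HepWT, deviations at different times correlated at -0.01 to 0.30. Between replicates 1 and 2, edgeR's quasi-likelihood test called 81 genes in HepWT, none of them a member. It called 0 genes in HepKO. The labels do not say what the HepWT replicate numbers stand for. Signs changed as follows. With a block in HepWT alone, C8b was at 0.103, F11 at 0.109 and Serpinf2 at 0.0240. Against HepWT replicate 1 alone, C8b was at 0.114, F11 at 0.115, Serpinf2 at 0.0297 and F12 at 0.00432. Against HepWT replicate 2 alone, Fga was at -0.0306, Fgb at -0.0503 and Vtn at -0.0174. Without the low-depth libraries C8b was at 0.0115. Over the fits that left out 1 library, C8b ran from -0.101 to 0.0530, F11 from -0.0422 to 0.0289, Serpinf2 from -0.0513 to 0.00255 and Vtn from -0.00888 to 0.0383. The cause was not tested. With 2 libraries per group, single-time calls have the least support, and members near the threshold (Klkb1, Serpinc1, Proc, F9 and F10) cross it in either direction.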
